A study of Mus musculus with 4 samples.

Results

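The 7 CDK inhibitor genes of the mouse (Cdkn1a, Cdkn1b, Cdkn1c, Cdkn2a, Cdkn2b, Cdkn2c and Cdkn2d) were examined in mouse embryonic fibroblasts (MEFs) grown at low and at high density. They were taken as every non-control probe that the array annotation gives to one of these symbols, which gave 10 of 41174 probes and 37 of 43379 features. RNA from C57BL/6J MEFs labelled Lats2-/- (KO) or Lats2+/+ (WT) was compared on 4 Agilent arrays with 2 colours and whole-genome content, which made 2 arrays for each genotype. On array 1 of each genotype the high density RNA carried Cy5 and the low density RNA Cy3, and on array 2 the dyes were exchanged. Low density cells were collected after 48 hours, when subconfluent, and high density cells after 3 to 5 days, so that time in culture changed together with density. All cells were kept in the same serum-containing medium, and no drug is named in the labels. The labels do not say how many embryos gave the cells, or whether the arrays of a dye pair used the same extracts, and the spelling of the gene differs between label fields (Lats2 in the genotype, LAT2 in the source). A dye pair was counted as 1 replicate. The error given with a mean is therefore the SD over the 2 arrays (or dyes) of a pair, which is technical, and no p-value is given for a difference within a genotype or between genotypes.

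CDK inhibitors restrain the cyclin-dependent kinases that carry cells from G1 into S phase. The Cip/Kip family (p21, p27 and p57, encoded by Cdkn1a, Cdkn1b and Cdkn1c) binds complexes of several cyclins and kinases, whereas the INK4 family (p16, p15, p18 and p19, encoded by Cdkn2a, Cdkn2b, Cdkn2c and Cdkn2d) binds Cdk4 and Cdk6. When these kinases are held back, the retinoblastoma family of pocket proteins keeps E2F target genes off. Fibroblasts that crowd a dish leave the cell cycle, and p27 is the inhibitor classically tied to that contact inhibition. In cultured MEFs the Cdkn2a locus, which also encodes the p53 activator p19Arf, is known for its induction as cultures age.

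The Lats2 signal went against the genotype label at 3 of 4 Lats2 probes. The brightest of these read 2872 to 2901 on the WT arrays and 7144 to 7923 on the KO arrays at low density, so WT and KO below refer to labels. At the fourth probe KO minus WT was -0.63 at low and -1.26 at high density on the log2 scale. Where these probes lie relative to the targeted part of the gene was not analysed here. Both WT arrays were on 1 slide with 1 scan day and the KO arrays on 2 other slides with different scan days, so slide and scan day cannot be told apart from genotype. The share of features well above background ran from 52.8% to 67.7% over the channels, and was highest on KO array 1. All 8 fibroblast markers (among them Col1a1, Vim and Pdgfrb) were well above background in every culture. The dimmest of them in WT at low density was Pdgfra, at 82.1 to 113, beside 99.1 to 112 for the macrophage marker Cd68. No more than 2 of 4 macrophage, 1 of 3 endothelial and 1 of 4 epithelial markers were well above background in any culture. Ptprc, Adgre1, Pecam1, Cdh5, Cdh1, Epcam and Krt8 were well above background in no channel, Cd68 in 8 channels, Csf1r in 6, and Kdr and Krt18 in 2 each, and the highest intensity among these 4 was 225 (Csf1r). Among 3 neural progenitor markers Sox2 was not well above background in any channel. Nes read 9609 to 9826 in WT at low density and 123 to 142 in KO, whereas Tubb3 read 931 to 938 in WT and 909 to 953 in KO. The cultures also differed in Pdgfra, a receptor of mesenchymal cells. It was higher in KO by 4.46 at low density, against the dim WT signal, and by 3.10 at high density (log2). The part of these differences in the results below was not tested, and in bulk RNA fewer cells of a type and less RNA per cell cannot be told apart.

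Each of the 10 CDK inhibitor probes was detected well above background in every one of the 8 channels. Their values are normalised intensities, that is, spot intensity after background correction (an offset of 50 is included) and scaling within and between arrays. An intensity can be compared between cultures at 1 probe but not between probes. A density effect is the log2 ratio of high over low density, and a genotype difference is KO minus WT on the log2 scale within the same dye. A probe was counted as changed when the mean was at least 1 in size (2-fold) and both arrays, or both dyes, gave it the same sign. By that rule 13.3% of 22591 probes were changed by density in WT (7.61% higher and 5.72% lower at high density) and 9.62% of 23596 in KO (5.9% higher and 3.73% lower). The split rests on the normalization, since higher probes made up 57.1% of those changed in WT and 61.3% in KO with loess but 43.9% and 40.3% with median centring, which moved the median of all KO ratios from 0.01 to -0.09. The density effects differed between genotypes by 2-fold or more at 8% of 21546 probes (3.78% higher and 4.22% lower in KO). At low density 13.9% of 23339 probes differed between genotypes (6.87% higher and 7.05% lower in KO) and at high density 13% of 23617 (6.42% higher and 6.61% lower). Without scaling between arrays the median genotype difference of all probes stood at 0.27 at both densities, against 0.04 with it, and higher probes made up 72.3% and 70.2% of those counted, against 49.3% at both densities.

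**Figure D1:**
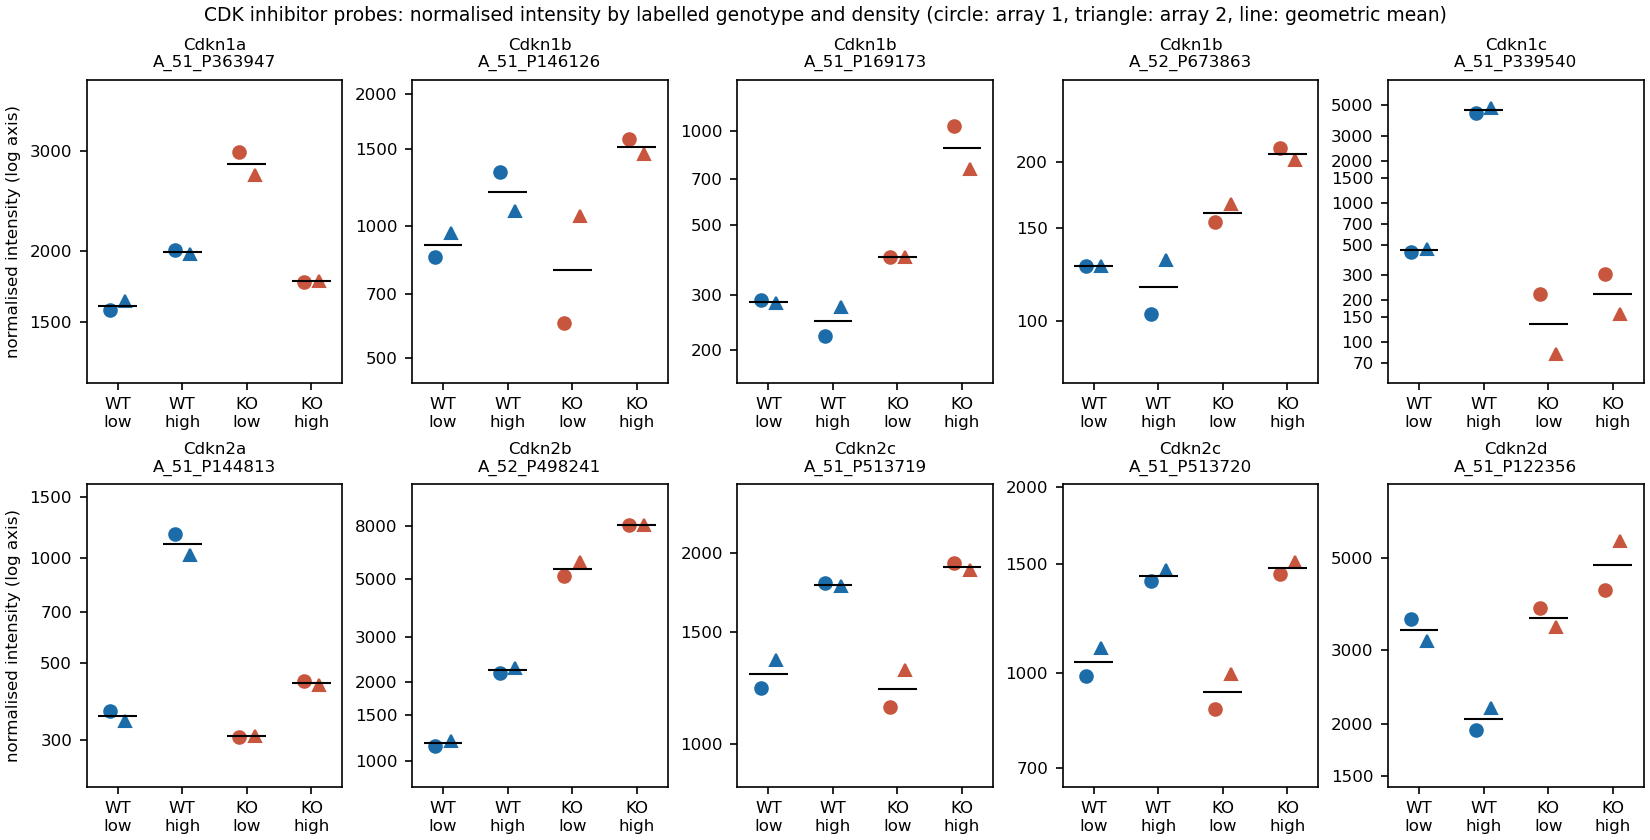
Normalised intensity (log axis, a separate range in each panel) of the 10 CDK inhibitor probes in WT (blue) and KO (red) cultures at low and high density. Circles are array 1, triangles array 2 and lines geometric means. Cdkn1c stood at 4416 and 4808 in WT at high density and at 467 or less in every other channel, and Cdkn2b at 5120 or more in KO and at 2271 or less in WT.

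Cdkn1c, which encodes p57, is an imprinted gene expressed from the maternal allele, and its probe (A_51_P339540, chr7:143268238-143268297, minus strand, mm8) showed the widest range of the 10. Its normalised intensity in WT was 445 and 467 at low density and 4416 and 4808 at high density. In KO it was 221 on array 1 and 81.3 on array 2 at low density, and 308 and 157 at high density. WT cells at high density stood far above the other cultures, and the KO values at the 2 densities overlapped because the KO arrays differed from each other by more than the densities did. The density effect was 3.31 and 3.36 on the WT arrays (mean 3.34 ± 0.04, SD, n = 2 arrays, a 10.1-fold difference) and 0.47 and 0.95 on the KO arrays (mean 0.71 ± 0.34). The difference between these effects was -2.62 ± 0.30. KO minus WT at low density was -1.01 in Cy3 and -2.52 in Cy5 (mean -1.76 ± 1.07), or as a mean -2.21 with an offset of 10 and -2.69 with the processed signals, and at high density the differences were -3.84 in Cy5 and -4.93 in Cy3 (mean -4.39 ± 0.77, 20.9-fold). The size of the low density difference thus rested on which array was read, though both met the 2-fold rule. Before scaling, the spot less local background was 122 and 481 (low and high density) on KO array 1 and 48.2 and 79.3 on KO array 2, so that on KO array 2 the signal was close in size to the offset of 50 added to every spot. With an offset of 10 the KO density effect was 1.004, and with the processed signals of the scanner software 1.31, both reaching 2-fold.

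Cdkn1b encodes p27, and its 3 probes on chromosome 6 (plus strand, mm8) did not give the same picture. The probe farthest upstream, A_51_P169173 at chr6:134886778-134886836, and the middle one, A_52_P673863 at chr6:134889281-134889340, are annotated to the RefSeq transcript of the gene. The probe farthest downstream and the brightest of the 3, A_51_P146126 at chr6:134890890-134890949, was designed on a full-length cDNA clone from neonatal thymus and lists no RefSeq transcript. At the upstream probe, printed on 10 spots of each array, intensities were 289 and 283 in WT at low density, 222 and 275 in WT at high density, 396 and 397 in KO at low density, and 1036 and 754 in KO at high density. All KO values lay above all WT values, and KO at high density stood above the rest. Its density effect was -0.38 and -0.04 in WT (mean -0.21 ± 0.24) and 1.39 and 0.93 in KO (mean 1.16 ± 0.33). On WT array 2 the 10 spots ran from -0.13 to 0.04, across 0, whereas on the KO arrays all spots lay between 0.84 and 1.44. The KO effect reached 2-fold as a mean and on array 1 but not on array 2 alone. The effects differed between genotypes by 1.37 ± 0.57, and KO was higher than WT by 0.47 ± 0.02 at low and 1.84 ± 0.54 at high density.

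At the middle Cdkn1b probe intensities were 127 and 127 in WT at low density, 103 and 130 in WT at high density, 154 and 167 in KO at low density, and 213 and 202 in KO at high density. KO was above WT at both densities here as well. The density effect was -0.30 and 0.03 in WT, with no common sign, and 0.47 and 0.27 in KO. KO minus WT came to 0.34 ± 0.08 at low and 0.84 ± 0.29 at high density. The latter came to 1.14 with an offset of 10, to 1.53 with the processed signals, and to 1.05 without scaling between arrays or without array 2 of either genotype, all past 2-fold. At the downstream probe the values were 849 and 961 in WT at low density, 1329 and 1080 in WT at high density, 598 and 1052 in KO at low density, and 1583 and 1458 in KO at high density. Here the genotypes overlapped at low density, where KO minus WT was -0.51 in Cy3 and 0.13 in Cy5. Density effects were positive in both genotypes, 0.65 and 0.17 in WT (mean 0.41 ± 0.34) and 1.404 and 0.47 in KO (mean 0.94 ± 0.66), and the genotype difference at high density was 0.34 ± 0.13. With the processed signals the KO effect was 1.01, which counted as changed. Averaged over the 3 probes, the WT density effect of Cdkn1b was 0.02 and its genotype difference at high density 1.01.

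Cdkn1a encodes p21, a direct target of p53, and was read by 1 probe on 10 spots (A_51_P363947, chr17:28828096-28828155, plus strand, mm8). Its intensity was 1573 and 1628 in WT at low density, 2009 and 1978 in WT at high density, 2985 and 2719 in KO at low density, and 1762 and 1769 in KO at high density. None of the 4 cultures overlapped, with KO at low density highest and WT at low density lowest. It followed that density effects had opposite signs in the genotypes, 0.35 and 0.28 in WT (mean 0.32 ± 0.05) against -0.76 and -0.62 in KO (mean -0.69 ± 0.10). The SD over 10 spots was 0.02 to 0.04 on each array, and all 40 spot ratios had the sign of their genotype's mean. With median centring the means were 0.12 and -0.98, and the WT arrays did not share a sign (1.06 and -0.82). The effects differed by -1.01 ± 0.15, which sat at the 2-fold limit and came to -0.94 without KO array 1 and -0.97 without WT array 1. KO exceeded WT by 0.83 ± 0.13 at low density, and by 1.12 without scaling between arrays, where Cdkn1a counted as changed. At high density KO minus WT was -0.17 ± 0.02. In that setting it was 0.11, which was still below the median of all probes.

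RefSeq lists a pair of start sites for Cdkn1a in the GRCm38.p6 build, and the window around the upstream one is shown because it holds matches to the p53 half-site, the decamer that p53 binds in pairs. The window runs from 250 bases before to 50 bases after the start (chr17:29090729-29091028, plus strand), and capitals mark 2 matches, whose first bases lie at -73 and -51.
Cdkn1a, upstream start: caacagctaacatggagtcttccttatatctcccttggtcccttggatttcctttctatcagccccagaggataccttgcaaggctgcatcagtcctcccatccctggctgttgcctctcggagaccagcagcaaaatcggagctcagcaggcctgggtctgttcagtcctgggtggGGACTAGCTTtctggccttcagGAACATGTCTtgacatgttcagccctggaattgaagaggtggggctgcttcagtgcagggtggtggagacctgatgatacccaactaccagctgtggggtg
Searched on both strands, a p53 half-site was found in 8.36% of the 32851 promoter windows of this length in the RefSeq table, and 2 or more in 0.359%. Among the 9 windows of 6 CDK inhibitor genes with an entry, it was found in that of Cdkn2d (1 match) and in this one. The other Cdkn1a window had none, and Cdkn1c had no entry. A match says only that these letters are there.

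Cdkn2a and Cdkn2b are neighbours on chromosome 4. Cdkn2a gives 2 unrelated proteins from different first exons, p19Arf from the upstream one and the INK4 protein p16 from the downstream one. Its probe (A_51_P144813, chr4:88745872-88745931, minus strand, mm8) is annotated to both RefSeq transcripts (NM_009877 and NM_001040654), so these values cannot tell them apart. The Cdkn2a intensity was 363 and 341 in WT at low density, 1173 and 1020 in WT at high density, 306 and 308 in KO at low density, and 444 and 432 in KO at high density. WT at high density stood above the other cultures by more than 2-fold, and the remaining cultures did not overlap. The density effect was 1.69 and 1.58 in WT (mean 1.64 ± 0.08, 3.11-fold) and 0.53 and 0.49 in KO (mean 0.51 ± 0.03), with SDs over its 9 or 10 usable spots of 0.04 to 0.05 on each array. The effects differed by -1.13 ± 0.04. KO minus WT was -0.19 ± 0.07 in low density cells and -1.32 ± 0.11 in high density cells. Without scaling between arrays the low density value was 0.06, again below the median of all probes.

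Cdkn2b, which encodes p15 and is a known target of TGF-beta signalling, was higher in KO at both densities and higher at high density in both genotypes. At its probe (A_52_P498241, chr4:88777764-88777823, minus strand, mm8) the intensity was 1138 and 1193 in WT at low density, 2181 and 2271 in WT at high density, 5120 and 5794 in KO at low density, and 8020 and 8075 in KO at high density. Each KO value exceeded each WT value, and within a genotype each high density value exceeded each low density one. KO was higher by 2.22 ± 0.08 at low density (4.67-fold) and by 1.85 ± 0.03 at high density (3.62-fold). The density effect was 0.94 and 0.93 in WT (mean 0.93 ± 0.01), just under 2-fold, and 0.65 and 0.48 in KO (mean 0.56 ± 0.12), and the difference between them was -0.37 ± 0.11. With median centring the KO effect was 0.13. The 2 adjacent genes therefore differed in the sign of their genotype difference at high density, Cdkn2b being higher and Cdkn2a lower in KO. Of their other neighbours, Mtap, which encodes methylthioadenosine phosphorylase, had density effects of -0.42 in WT and -0.08 in KO and genotype differences of -0.71 and -0.36 at low and high density, and Dmrta1 was not well above background in any channel.

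The start windows of this pair are shown because they separate the transcripts that the probes pool or neighbour. Capitals mark the GC box (GGGCGG, both strands), a short motif bound by Sp1. The Cdkn2a windows are chr4:89294570-89294869 for the upstream start and chr4:89282143-89282442 for the downstream start, and that of Cdkn2b is chr4:89310983-89311282, all on the minus strand of GRCm38.p6.
Cdkn2a, upstream start: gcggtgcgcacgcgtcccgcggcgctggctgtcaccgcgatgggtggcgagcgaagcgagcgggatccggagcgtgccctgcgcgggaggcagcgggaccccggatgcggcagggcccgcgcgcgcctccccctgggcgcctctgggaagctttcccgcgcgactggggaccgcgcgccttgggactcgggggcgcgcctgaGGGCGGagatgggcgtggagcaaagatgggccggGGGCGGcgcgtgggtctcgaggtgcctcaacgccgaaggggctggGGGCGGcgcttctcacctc
Cdkn2a, downstream start: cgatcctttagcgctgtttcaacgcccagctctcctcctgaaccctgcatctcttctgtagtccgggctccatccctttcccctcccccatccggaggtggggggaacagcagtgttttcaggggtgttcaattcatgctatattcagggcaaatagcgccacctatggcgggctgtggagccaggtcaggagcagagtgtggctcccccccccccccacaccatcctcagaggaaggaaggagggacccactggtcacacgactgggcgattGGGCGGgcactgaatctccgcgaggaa
Cdkn2b: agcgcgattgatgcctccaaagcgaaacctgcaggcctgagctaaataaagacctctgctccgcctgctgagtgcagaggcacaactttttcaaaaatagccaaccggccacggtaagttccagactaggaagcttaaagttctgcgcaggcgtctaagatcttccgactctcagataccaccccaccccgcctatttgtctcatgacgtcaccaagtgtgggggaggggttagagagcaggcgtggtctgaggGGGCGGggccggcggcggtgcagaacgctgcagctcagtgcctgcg
The upstream Cdkn2a window held 3 GC boxes and a GC content of 77.0%, against 1 GC box each and 60.3% and 57.7% in the other windows shown. A GC box was present in 35.7% of all 32851 windows and in 7 of the 9 CDK inhibitor windows. The TATA box (TATAAA) was in none of the 9 windows and in 13.6% of all, and the CCAAT box (CCAAT) in 4 of the 9 and in 37.4% of all.

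Cdkn2c, which encodes p18, gave the smallest genotype difference at each density among the CDK inhibitors, each at its brightest probe and with scaling between arrays. Its 2 probes overlap (A_51_P513719, chr4:109159106-109159165, and A_51_P513720, chr4:109159084-109159145, minus strand, mm8) and therefore read nearly the same stretch. At the first, intensities were 1227 and 1357 in WT at low density, 1796 and 1774 in WT at high density, 1142 and 1310 in KO at low density, and 1931 and 1881 in KO at high density. High density exceeded low density in every pair, whereas the genotypes overlapped at low density. This made a density effect of 0.55 and 0.39 in WT (mean 0.47 ± 0.12) and 0.76 and 0.52 in KO (mean 0.64 ± 0.17). At the second probe it was 0.46 ± 0.06 in WT and 0.67 ± 0.08 in KO. The genotype differences of the 2 probes lay between -0.16 and 0.09, or between 0.13 and 0.40 without scaling between arrays, around the median of all probes in that setting. With 1 replicate per genotype no interval for them can be given.

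Cdkn2d, which encodes the INK4 protein p19 (distinct from p19Arf), had its lowest values in WT at high density. At its probe (A_51_P122356, chr9:21038938-21038997, minus strand, mm8) intensities were 3575 and 3165 in WT at low density, 1937 and 2190 in WT at high density, 3782 and 3411 in KO at low density, and 4186 and 5486 in KO at high density. The genotypes overlapped at low density and were far apart at high density. Its density effect came to -0.88 and -0.53 in WT (mean -0.71 ± 0.25) and 0.15 and 0.69 in KO (mean 0.42 ± 0.38), again of opposite sign. With median centring the KO mean was 0.04, with the KO arrays on either side of 0 (0.75 and -0.67). The effects differed by 1.12 ± 0.13, which came to 0.85 without KO array 2, 0.95 without WT array 1 and 0.97 with median centring. KO minus WT was 0.09 ± 0.02 in low density cells and 1.22 ± 0.15 in high density cells.

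**Figure D2:**
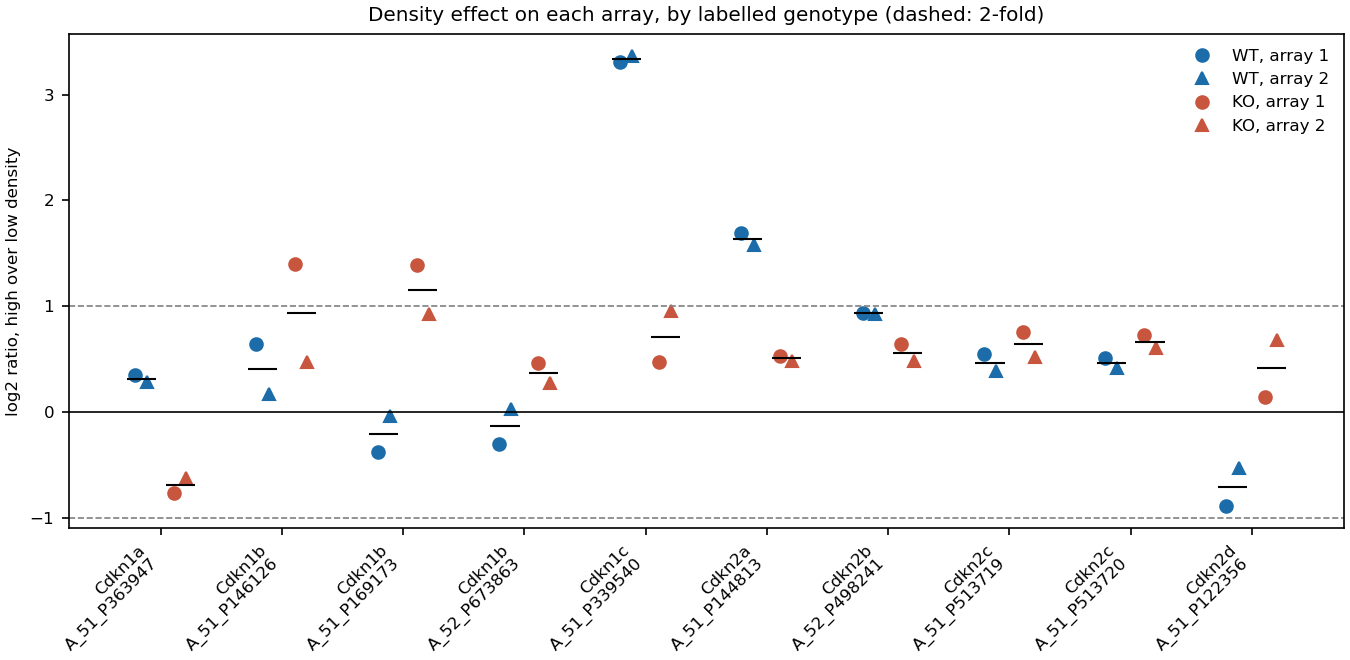
Density effect (log2 ratio of high over low density) of the 10 probes on each array, WT in blue and KO in red, circles for array 1 and triangles for array 2. Short lines are the means of a dye pair and dashed lines 2-fold. The WT arrays stood at 3.31 and 3.36 for Cdkn1c and the KO arrays at 0.47 and 0.95, and WT and KO lay on opposite sides of 0 for Cdkn1a, Cdkn2d and the upstream Cdkn1b probe, as at 14.5% of all probes.

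Read over the 7 genes, each at its brightest probe, 2 were changed by density in WT (Cdkn1c and Cdkn2a, both higher at high density), against 13.3% of all probes, and 0 in KO, against 9.62%. The median density effect of the genes was 0.47 in WT and 0.56 in KO, beside medians over all probes of 0.01 in both. In each genotype 6 of 7 genes were above 0, beside 50.8% of all probes in WT and 51.0% in KO. Cdkn2d was the exception in WT and Cdkn1a in KO. Of the 10 probes 7 were above 0 in WT and 9 in KO. In WT Cdkn1b stood at 0.41 at its brightest probe but at -0.21 and -0.13 at the others. Over all 10 probes 1 was changed in KO, the upstream Cdkn1b probe. The difference between density effects reached 2-fold at 4 of 7 genes, against 8% of all probes, lower in KO at Cdkn1a, Cdkn1c and Cdkn2a and higher at Cdkn2d. At low density 2 genes differed between genotypes, against 13.9% of all probes, Cdkn1c being lower and Cdkn2b higher in KO, and 3 without scaling between arrays, against 15.7%. At high density 4 genes did, against 13%, Cdkn1c and Cdkn2a being lower and Cdkn2b and Cdkn2d higher in KO, and to these the probes add the upstream one of Cdkn1b. The genes thus did not share a direction between genotypes, with a median difference of -0.08 at low and 0.09 at high density, beside 0.04 for all probes at both.

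**Figure D3:**
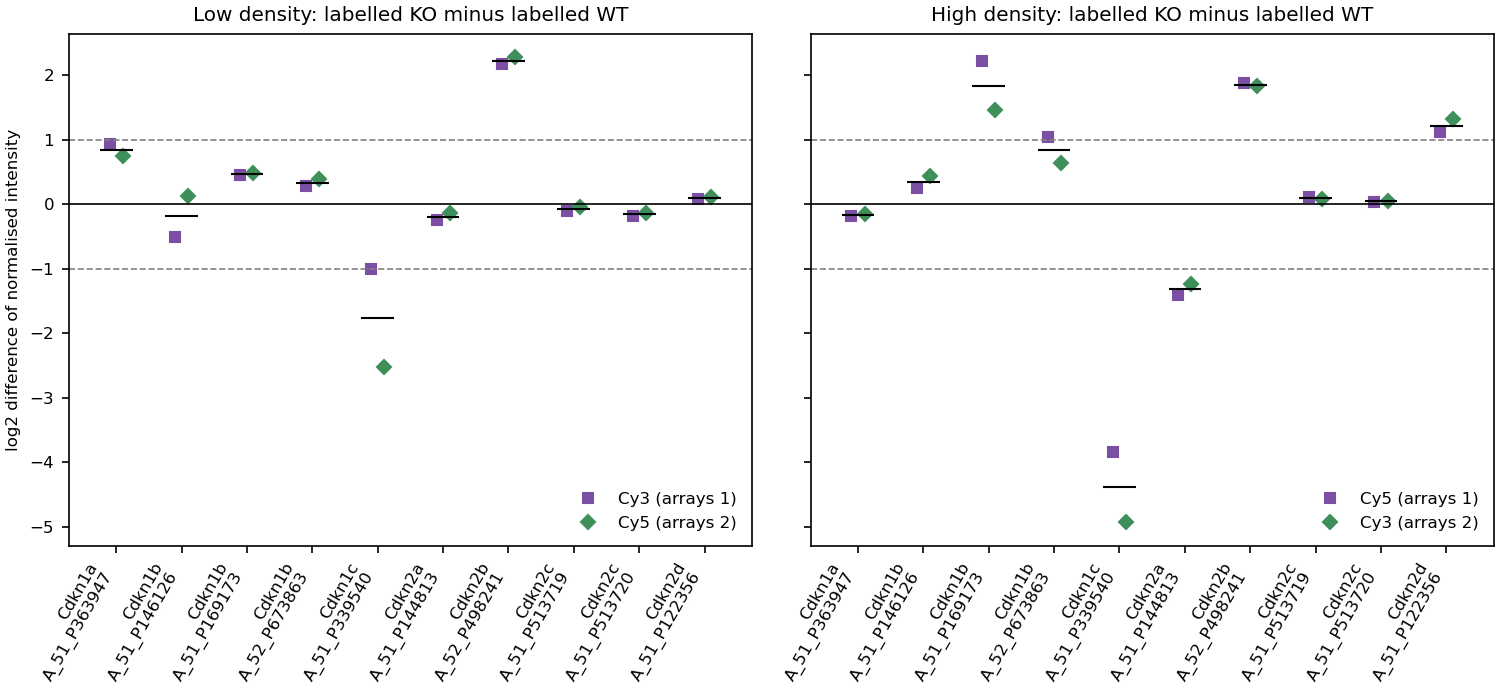
Genotype difference (log2, labelled KO minus labelled WT) of the 10 probes at low density (left) and high density (right), each dye shown separately. Short lines are the means of both dyes and dashed lines 2-fold. Cdkn2b was higher in KO by 2.17 and 2.28 at low and by 1.88 and 1.83 at high density, and Cdkn1c was lower in both dyes at both densities, with the widest gap between dyes at low density (-1.01 and -2.52).

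**Figure D4:**
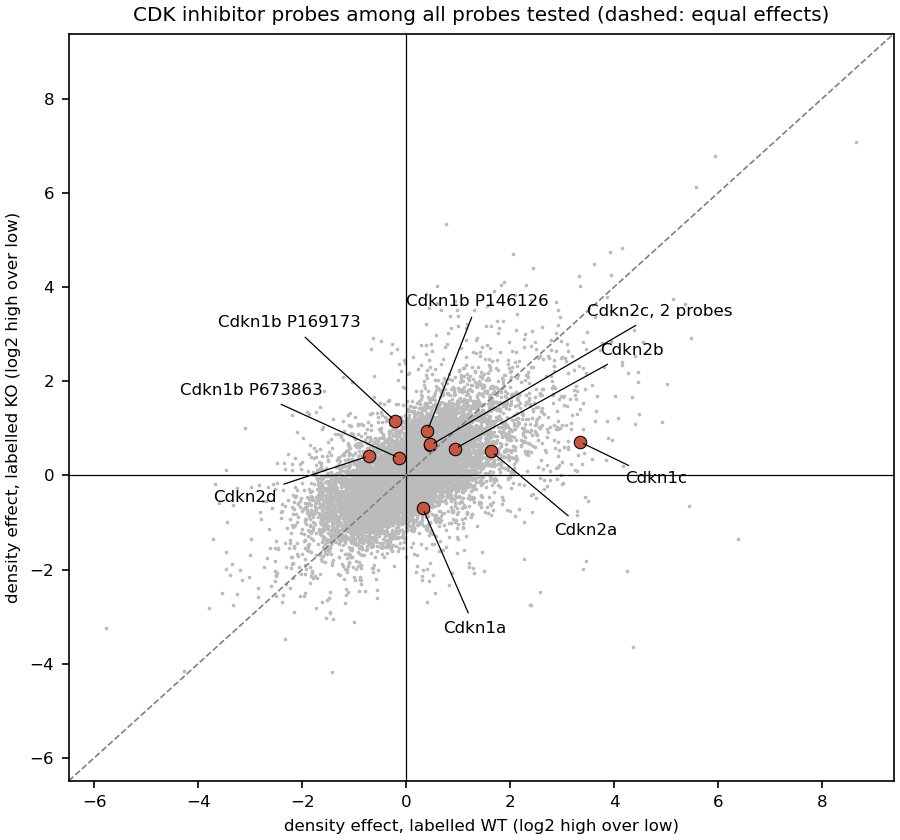
Density effect in WT (x axis) and KO (y axis), both log2 high over low, of the 21546 probes tested in both genotypes (grey) and the 10 CDK inhibitor probes (red). The dashed line marks equal effects. Cdkn1c at 3.34 and 0.71 and Cdkn2a at 1.64 and 0.51 lay below it, and the upstream Cdkn1b probe at -0.21 and 1.16 above it.

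A density effect shared by both genotypes was tested with limma on the WT and KO means, where the spread is the difference between genotypes (n = 2). Of 21546 probes 0 passed an adjusted p of 0.05 (0%), the lowest being 0.0667, while 6391 had an unadjusted p under 0.05. The methods' t-test with a 2-fold change called 436 probes unadjusted and 0 after Benjamini-Hochberg adjustment, and limma with all 4 arrays and genotype as a random block called 5530. Of the 10 CDK inhibitor probes 6 had an unadjusted limma p under 0.05, beside 29.7% of all probes. Both Cdkn2c probes are among the 6, and since these overlap they are not separate readings. The estimates were 0.75 (SE 0.18, limma adjusted p = 0.105) for Cdkn2b, 2.03 (SE 0.68, limma adjusted p = 0.152) for Cdkn1c and 1.07 (SE 0.32, limma adjusted p = 0.134) for Cdkn2a. Those of Cdkn1a and Cdkn2d, whose effects had opposite signs in the genotypes, were -0.19 (limma adjusted p = 0.703) and -0.15 (limma adjusted p = 0.788). The random block takes the 4 dye-swapped arrays as observations, although a dye pair was counted as 1 replicate here. In it Cdkn2b, Cdkn2a, Cdkn1c and Cdkn2c passed, beside 25.7% of all probes, Cdkn2b with the lowest limma adjusted p (0.0151).

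The partners and targets of the inhibitors were read from lists, each gene at its brightest probe, and named genes are the highest and lowest pair of each list and genotype. Of 9 G1 cyclins and kinases that the inhibitors bind, 3 were lower at high density in WT (Ccne2 at -1.93, Ccne1 at -1.75 and Ccna2 at -1.60), beside 5.72% of all probes, and 1 in KO (Ccne1 at -1.03), beside 3.73%, and none was higher in either. Ccne1 and Ccne2 encode the E cyclins that activate Cdk2, the kinase that Cip/Kip proteins inhibit. The D cyclins, partners of Cdk4 and Cdk6, did not share a sign. Ccnd2 (0.31) and Ccnd3 (0.21) were highest in WT, and Ccnd2 (0.63) and Cdk6 (0.56) in KO, whereas Ccnd1 stood at -0.32 in WT and -0.23 in KO. The lowest in KO after Ccne1 was Ccne2, at -0.93. The list's median density effect was -0.32 (WT) and -0.10 (KO). The KO effect exceeded the WT effect at 9 of 9 genes, where 52.0% of all probes had a difference above 0, and by 2-fold or more at Ccne2 and Ccna2, beside 3.78%. At low density 3 of the 9 were lower in KO than in WT, beside 7.05% of all probes, Ccne1 by -1.38, Ccne2 by -2.16 and Ccna2 by -1.20. At high density KO minus WT was -0.67, -1.16 and 0.37 for these genes, and 1 of the 9 was lower, beside 6.61%.

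Of 13 pocket protein and E2F genes 2 were lower at high density in WT, the repressor E2f7 at -2.12 and Rbl1, which encodes p107, at -1.66, beside 5.72% of all probes, and 0 were changed in KO, beside 9.62%. Rbl2, which encodes p130, the pocket protein of resting cells, was the highest in both genotypes (0.65 in WT and 0.85 in KO), followed by Tfdp2 in WT (0.52) and Rb1 in KO (0.21). The lowest in KO were Tfdp1 (-0.94) and E2f6 (-0.88), and the list median stood at -0.60 (WT) and -0.39 (KO).

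Of 12 genes for turnover of the inhibitors 3 were lower at high density in WT, namely Dtl (-1.38), Cks1b (-1.12) and Skp2 (-1.02), beside 5.72% of all probes, and 0 in KO, beside 3.73%, where Dtl stood at -0.93 and Cks1b at -0.76. Skp2 and its cofactor Cks1b direct p27 to degradation, and Dtl is the substrate receptor that marks p21. Skp1, the adaptor of the same ligase as Skp2, was highest in both genotypes, at 0.30 in WT and 0.37 in KO. Next to it came Rnf123 in WT (0.16) and Ubac1 in KO (0.32), which together form the complex that degrades p27 in the cytoplasm. For Skp2 KO minus WT was -1.66 at low density and, at the 2-fold limit, -1.0004 at high density.

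Among 19 transcriptional regulators of the inhibitors, 18 passed the filter in WT and 17 in KO. In WT 1 was higher at high density (Tbx2, a repressor of the Cdkn2a locus, at 1.02), beside 7.61% of all probes, and 3 were lower, beside 5.72%, the Notch target Hes1 at -1.80, the Polycomb methyltransferase Ezh2 at -1.23 and Myc at -1.10. Ets2 stood at 0.99. In KO 2 were higher (Id2 at 1.14 and Foxo1, an activator of Cdkn1b, at 1.02), beside 5.9%, and 2 lower, beside 3.73% (Ets1, an activator of Cdkn2a, at -1.81 and Myc at -1.66).

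The 16 p53 targets other than Cdkn1a did not move as 1 group. In WT 5 were higher at high density and 1 lower, beside 7.61% and 5.72% of all probes, with Trp53inp1 (3.25) and Sesn1 (2.01) highest and Pmaip1 (-1.53) and Aen (-0.65) lowest. In KO 3 were higher and 2 lower, beside 5.9% and 3.73%, with Trp53inp1 (1.70) and Sesn1 (1.52) again highest and Btg2 (-1.26) and Ccng1 (-1.06) lowest. The list median was 0.39 (WT) and -0.12 (KO). Like that of Cdkn1a, the KO effect was at least 2-fold below the WT effect at 5 genes, Ccng1 (-1.80), Btg2 (-1.70), Trp53inp1 (-1.55), Fas (-1.28) and Mdm2 (-1.02), named after their values were seen, and at 0 genes was it 2-fold above. That is 5 of 16 beside 4.22% of all probes.

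Of 15 proliferation genes 14 were lower at high density in WT, beside 5.72% of all probes, with Top2a (-2.004) and Cdk1 (-1.81) lowest and Ccnb1 (-1.06) and Ccnb2 (-0.26) highest. In KO 3 were lower, beside 3.73%, with Mcm2 (-1.40) and Mcm3 (-1.27) lowest and Mki67 (0.20) and Aurkb (-0.09) highest. Their median stood at -1.60 (WT) and -0.48 (KO), and the KO effect exceeded the WT effect by 2-fold or more at 9 of 15 genes, beside 3.78%. At low density 8 of the 15 were lower in KO than in WT, beside 7.05%, and at high density 1, beside 6.61%.

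**Figure D5:**
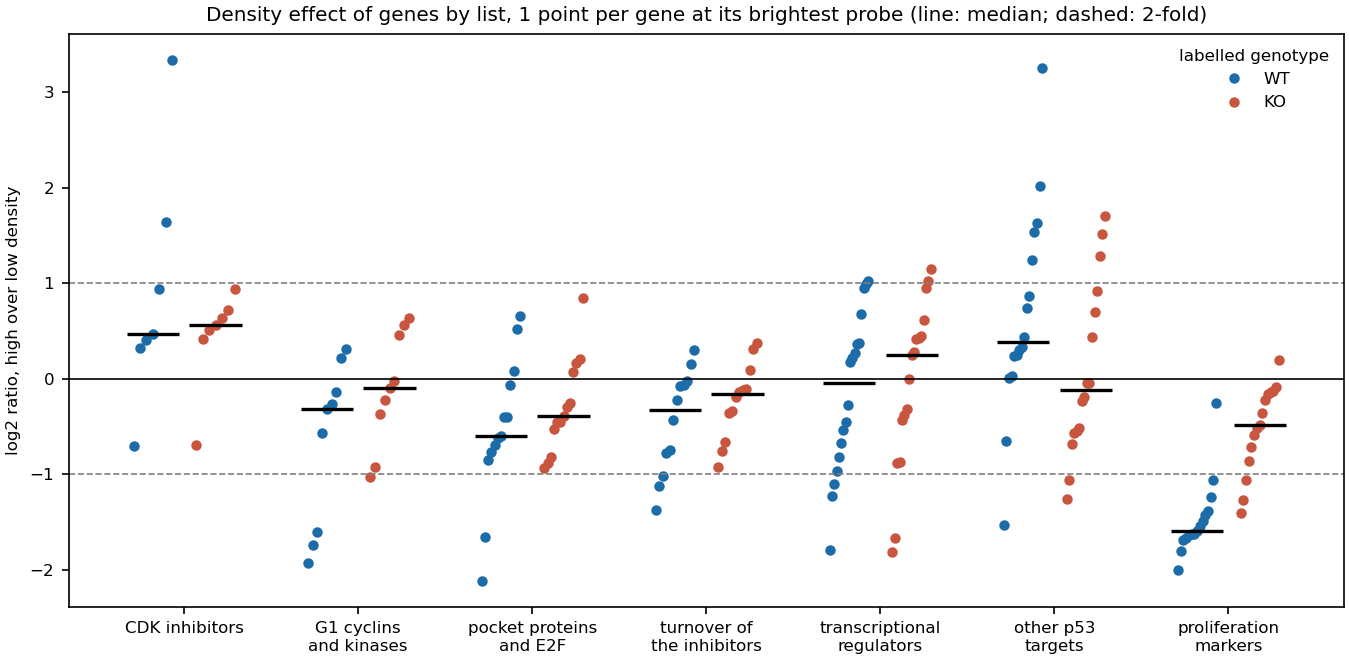
Density effect (log2 ratio of high over low density) by gene list, 1 point per gene at its brightest probe, WT in blue and KO in red. Black lines are list medians and dashed lines 2-fold. The CDK inhibitors had medians of 0.47 and 0.56 and the proliferation markers of -1.60 and -0.48.

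Genes of the imprinted cluster around Cdkn1c were listed as its neighbours, and whether any of them shares control elements with Cdkn1c was not analysed here. Of 10 genes 9 were on the arrays and 6 passed the filter in WT and 5 in KO. Kcnq1, Phlda2 and Ascl2 passed it in neither. At high density Igf2, the growth factor gene expressed from the paternal allele, was higher in WT (2.85) and KO (2.23), and Slc22a18 (2.62) and H19 (1.20), both expressed from the maternal allele, were higher in WT. Tssc4 (-0.22) and Nap1l4 (-0.32) were lowest in WT, and in KO H19 stood at 0.93, Nap1l4 at 0.44 and Tssc4 at -0.24. Slc22a18, which lies beside Cdkn1c, read 169 to 195 in WT at low density and 1099 to 1131 at high density, against 63.2 to 80.7 in all KO channels. In KO it was well above background on 1 of the 2 arrays, so that it entered the genotype contrasts through WT alone and no difference is given for it. KO minus WT at low and high density was -4.08 and -4.35 for H19 and -1.19 and -1.81 for Igf2, and each of the 8 channels flagged both genes well above background.

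The genes nearest in pattern to each probe were sought among 12952 symbols well above background in all 8 channels, by the root mean square (RMS) distance of mean-centred log2 intensities over those channels. These 8 values come from 4 cultures and share arrays and dyes, so the distances are a description. Nearest to Cdkn1a was Mdm2 (0.06), the p53 target that encodes the ubiquitin ligase of p53, followed by a predicted ribosomal protein S18-like gene (EG629591, 0.08) and Nudt9 (0.09). Mdm2 read 2238 to 2337 in WT at low density, 2790 to 2964 in WT at high density, 4117 to 4297 in KO at low density and 2469 to 2757 in KO at high density. The cultures stood in the same order as at Cdkn1a. Nearest to Cdkn2a were Zhx1 (0.10), a transcript known by a cDNA number only (0.12) and Anks6 (0.12). For Cdkn2d they were Dtwd1 (0.11), Usp42 (0.12) and Tmem129 (0.13), and for Cdkn2b Lhfpl4 (0.14), Rbms3 (0.15) and Mtus1 (0.15). Cdkn1c had the most distant neighbours, Phactr1 (0.38), Wnt5b (0.44) and Clec11a (0.48), where the RMS of its own centred values was 2.003. The 3 Cdkn1b probes shared none. Tcf12, 2700007P21Rik and Sar1a (0.13 to 0.15) were nearest to the downstream probe, Cacna2d1, a cDNA and Cdh3 (0.16 to 0.18) to the upstream one, and a transcript annotated as ankyrin repeat and KH domain containing 1, Atxn7l3 and 2010011I20Rik (0.06 to 0.08) to the middle one. Both overlapping Cdkn2c probes had Ik as nearest symbol (0.04 and 0.05), followed by Smarcal1 and Cnot1 at one and by Mgrn1 and 2810030E01Rik at the other (0.05 to 0.06).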

How the data were processed

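RNA of MEFs labelled Lats2 KO or WT, at low and high density, was measured on 4 two-colour Agilent arrays, 2 per genotype with exchanged dyes. Groups and dyes were taken from the labels. The deposited scanner files, made by the authors with Agilent Feature Extraction 10.5.1.1 per the file headers and processing notes, hold spot and local background intensity per channel, background-subtracted and dye-normalized processed intensity, and the log10 of processed Cy5 over processed Cy3. The deposited series matrix was checked and holds that log10 ratio, rounded, with the sign of swapped arrays turned. Flags in the deposited files are 0 or 1. Log2 values given here were computed from intensity, as described next.

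In R 4.3.3 with limma 3.58.1, background was corrected by normexp (offset 50), arrays were normalized by loess and single channels scaled between arrays by Aquantile. Control spots and flagged outliers were left out, spots of a probe averaged, and ratios turned to high over low density. The added offset shrinks ratios between dim signals. A probe entered a density contrast if, for at least 1 density, it was flagged well above background by both arrays, and a genotype contrast if both dyes flagged it so for at least 1 genotype. With 1 replicate per group the number of arrays limits the precision and only the density effect over both genotypes was tested (limma, two-sided, Benjamini-Hochberg over all probes). On simulated data the size rule recovered the changed probes, whereas the limma test did so when all probes had the same spread but not when each had its own. Recovery by the size rule does not check it against the spread between cultures, which 1 replicate per group cannot give.

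Every member probe is given, and a gene is represented by its brightest probe. Named genes of the lists are the pair with the highest and the pair with the lowest density effect in each genotype, and pattern neighbours the 3 symbols nearest to each member probe. Members and lists were chosen with earlier results of these data known. Older symbols were matched through RefSeq synonyms (19611 of 27745 names on the arrays matched). Probe positions are mm8 per the array annotation and were not assigned to exons. Promoter windows are from RefSeq (GRCm38.p6) and no position was moved between builds. Alternatives were median centring, an offset of 10, processed signals, both other filters, a 1.4-fold threshold and leaving out each array. Further ones were other scaling between arrays, the mean over a gene's probes, a random block and a t-test on the WT and KO means. Python 3.11.15 with numpy 2.4.6 and pandas 2.3.3 was used.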

Additional observations from a re-analysis of the deposited data

Results flagged for a closer look

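Density effects of opposite sign on every array of the genotypes were seen at 3 of the 10 CDK inhibitor probes, beside 14.5% of 21546 probes, and in each case the difference between genotypes was not tested, since each genotype gave 1 replicate. At Cdkn1a both WT arrays were above 0 and both KO arrays below it, with a difference of -1.01 (log2, KO minus WT). At Cdkn2d both WT arrays were below 0 and both KO arrays above it, with a difference of 1.12, which came to 0.85 without KO array 2, 0.95 without WT array 1 and 0.97 with median centring. At the upstream Cdkn1b probe (A_51_P169173) the WT arrays were below 0 and the KO arrays above it, with a difference of 1.37, and the effect on WT array 2 was only -0.04. At none of the 3 probes did every array keep these signs with median centring, where the WT and KO means were 0.12 and -0.98 at Cdkn1a, -0.93 and 0.04 at Cdkn2d, and -0.30 and 1.03 at the upstream Cdkn1b probe. The signs held on every array with an offset of 10 and with the processed signals.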

How the results depend on the processing

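With 1 replicate per genotype and density these values have no check in further cultures, signals near background depend on the offset, and genotype goes with slide and scan day. The labels number no replicates, and arrays were matched by dye only, so leaving out an array of either genotype leaves the same dye for the genotype differences and gives the same value. With the processed signals the probes changed numbered 5829 (density, WT), 4866 (density, KO), 3150 (difference of density effects), 6313 (genotype, low density) and 5883 (genotype, high density). At a 1.4-fold threshold they numbered 8578, 8168, 6126, 9385 and 8870. The CDK inhibitor genes changed by density came to 4 in WT (beside 38% of all probes) and 6 in KO (34.6%) at 1.4-fold, and in KO to 2 with the processed signals (Cdkn1b and Cdkn1c, beside 20.6%) and 1 with an offset of 10 (Cdkn1c, beside 13.9%). Leaving out 1 array gave 0 to 1 of them in KO, the 1 being Cdkn1b without KO array 2 (1.404, beside 10.4%), and 2 to 4 for the difference of density effects, 2 of them without WT array 1 (beside 8.15%), when Cdkn1a (-0.97) and Cdkn2d (0.95) fell under 2-fold. The limma test over both genotypes called 3 probes with median centring, 325 with an offset of 10, 287 with processed signals, 195 with the stricter filter, 0 to 150 without 1 array (150 without KO array 1) and 5530 with the random block, among them 4 CDK inhibitor genes, beside 25.7% of all probes. Of 23 such counts that moved by over 1.5 times the cause was not tested. Another 106 counts stayed within 1.5 times. No CDK inhibitor probe counted as changed turned its direction under any alternative run. Signs turned only at uncounted values, among them the low density genotype difference of the downstream Cdkn1b probe (-0.19, against 0.13 without KO array 1 or WT array 1).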
